A study of Mus musculus with 2 samples.

Results

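The genes described here encode the DNA topoisomerases Top1, Top1mt, Top2a, Top2b, Top3a and Top3b and the tyrosyl-DNA phosphodiesterases Tdp1 and Tdp2. They were taken by symbol from tables of 55414 mouse gene identifiers, and each of the 8 symbols matched 1 identifier. Read counts came from 2 RNA sequencing libraries of R1E cells, a wild-type line of mouse embryonic stem cells, grown in serum medium with leukemia inhibitory factor. The control library was untreated and labelled 0 h, and the other came from cells given 0.5 µM Adriamycin for 8 h. With a single library for each condition there was nothing to test against, and culture, library and time differences cannot be told apart from the drug.

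Topoisomerases relieve twisting and tangling of DNA by cutting it and joining it again, and they stay bound to the cut end through a tyrosine while they do so. Type I enzymes cut 1 strand and type II enzymes cut both. Adriamycin (doxorubicin) acts on the type II enzymes, traps them on the cut DNA and leaves breaks with protein attached. The tyrosyl-DNA phosphodiesterases remove such attached protein remnants, Tdp1 mainly those of Top1 and Tdp2 mainly those of the type II enzymes.

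Reads assigned to genes numbered 41820999 untreated and 38561292 with Adriamycin. Log2 ratios are Adriamycin over untreated after TMM scaling of library size, with a pseudocount of 0.5 read. A gene with a mean of at least 1 CPM (reads scaled to library size) was called measured, which 14871 genes were, and a ratio of at least 2-fold was called higher or lower. Intervals in parentheses are 95% counting intervals. They are too narrow as a measure of error between cultures, and mates of a pair appear to have been counted separately. The 8 pluripotency markers checked were all measured, and their summed level was 6379 CPM untreated and 3602 CPM with Adriamycin. Of these 8, 5 were at least 2-fold lower, where 6.95% of all measured genes were, and their median log2 ratio was -1.04. The 5 were Zfp42 (-1.89), Nanog (-1.66), Utf1 (-1.14), Esrrb (-1.06) and Tdgf1 (-1.03). Pou5f1 (-0.51), Sox2 (-0.42) and Dppa5a (-0.11) did not reach 2-fold. Scaled by total counts, 2 of the 8 were lower, and 4.85% of all measured genes. The 10 fibroblast markers summed to 63.9 and 149 CPM, with Col3a1, Dcn and Lum at 0 reads in both libraries. Most of the difference came from Fbln2 (6.21 and 53.7 CPM) and Col1a1 (5.38 and 31.9 CPM). These and Bgn (115 and 371 reads, log2 ratio 1.66) were the 3 of 7 measured that were higher. Of all measured genes 17.0% were. The median of the 7 was 0.58, the ratio of Pdgfrb, and Thy1, Pdgfra and Col1a2 had -0.14, -0.16 and 0.04. Among extraembryonic endoderm markers 0 of 4 measured passed 2-fold. The 1 trophoblast marker measured, Eomes, was lower (609 and 119 reads, -2.38). The others, Cdx2 (10 and 8 reads) and Elf5 (4 and 12 reads), were below 1 CPM, so this list rests on 1 gene. Of 2 measured blood markers Cd3e was higher on 47 and 97 reads (1.01, and 0.89 under upper-quartile scaling). The part of these markers in the results was not tested. Mdm2 (5110 and 37286 reads) and Cdkn1a (2289 and 7240 reads), which are known to respond to DNA damage, were 7.16-fold and 3.10-fold higher with Adriamycin.

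The promoters of the drug's targets Top2a and Top2b, and of Top1, which encodes a type I enzyme, are printed below. Each run is the 250 bases before the start in RefSeq's windows, 5′ to 3′ along the gene, on build GRCm38.p6. They are chr11:99024190-99024439 on the minus strand for Top2a, chr14:16364956-16365205 on the plus strand for Top2b and chr2:160645647-160645896 on the plus strand for Top1. Capitals mark CCAAT (the CCAAT box), TTTGAA (the core of a cell cycle element, CHR) and GGGCGG (the GC box), each on either strand. None of the marked motifs overlap.
Top2a: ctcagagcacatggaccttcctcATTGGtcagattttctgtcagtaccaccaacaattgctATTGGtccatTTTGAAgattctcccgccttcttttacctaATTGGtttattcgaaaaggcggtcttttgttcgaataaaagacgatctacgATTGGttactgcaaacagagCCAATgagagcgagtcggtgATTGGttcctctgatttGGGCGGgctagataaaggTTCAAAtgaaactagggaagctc
Top2b: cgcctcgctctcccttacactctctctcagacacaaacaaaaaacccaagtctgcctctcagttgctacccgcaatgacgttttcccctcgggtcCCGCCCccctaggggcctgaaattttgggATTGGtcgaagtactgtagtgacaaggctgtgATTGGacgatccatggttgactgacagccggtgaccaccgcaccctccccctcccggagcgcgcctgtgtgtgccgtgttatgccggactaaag
Top1: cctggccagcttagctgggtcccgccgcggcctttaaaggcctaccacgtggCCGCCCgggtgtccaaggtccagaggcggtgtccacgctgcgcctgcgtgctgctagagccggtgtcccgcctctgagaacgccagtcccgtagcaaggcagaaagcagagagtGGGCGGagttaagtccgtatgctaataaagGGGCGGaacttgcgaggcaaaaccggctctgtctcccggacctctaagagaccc

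The Top2a window held 6 CCAAT motifs, and 19 of 32851 RefSeq windows (0.0578%) held that many or more. It also held 2 TTTGAA motifs, as many or more than which 1.81% of the windows had, and the nearer of them begins 23 bases before the start. The Top2b window held 2 CCAAT motifs, which 10.1% of all windows reached or passed, and no TTTGAA. The Top1 window held neither of these but 3 GC boxes. At least 1 match was found in 33.8% of the windows for CCAAT, 16.0% for TTTGAA and 32.7% for the GC box. Of the 5 members with a RefSeq window, Top3b had 1 CCAAT and no match for the others, and Tdp1 had 1 TTTGAA and 1 GC box. Top1mt, Top3a and Tdp2 had no entry. A match of letters describes the sequence and shows no binding.

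All 8 genes were measured. Only Top1mt passed 2-fold among them, on the higher side, and none passed on the lower side. Of all measured genes 17.0% were higher and 6.95% were lower by the same rule, so 1 of 8 is near the background. By a 1.5-fold rule Top3b was higher too and Top1 and Top2a were lower, where 25.7% of all measured genes were higher and 18.9% lower. The median log2 ratio of the 8 was -0.27 and that of all measured genes -0.03. Top1mt, Top3b and Top3a had ratios above 0, and Top2b, Tdp1, Tdp2, Top1 and Top2a ratios below 0. Top2b was above 0 with total counts (0.02) and Top3a was below 0 with upper-quartile factors (-0.07), and the 6 others kept their side of 0 under all 4 scalings. Total counts moved the median of all measured genes by 0.15 and upper-quartile factors moved it by -0.12. In bulk RNA, fewer cells of a type and less RNA per cell cannot be told apart.

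**Figure D1:**
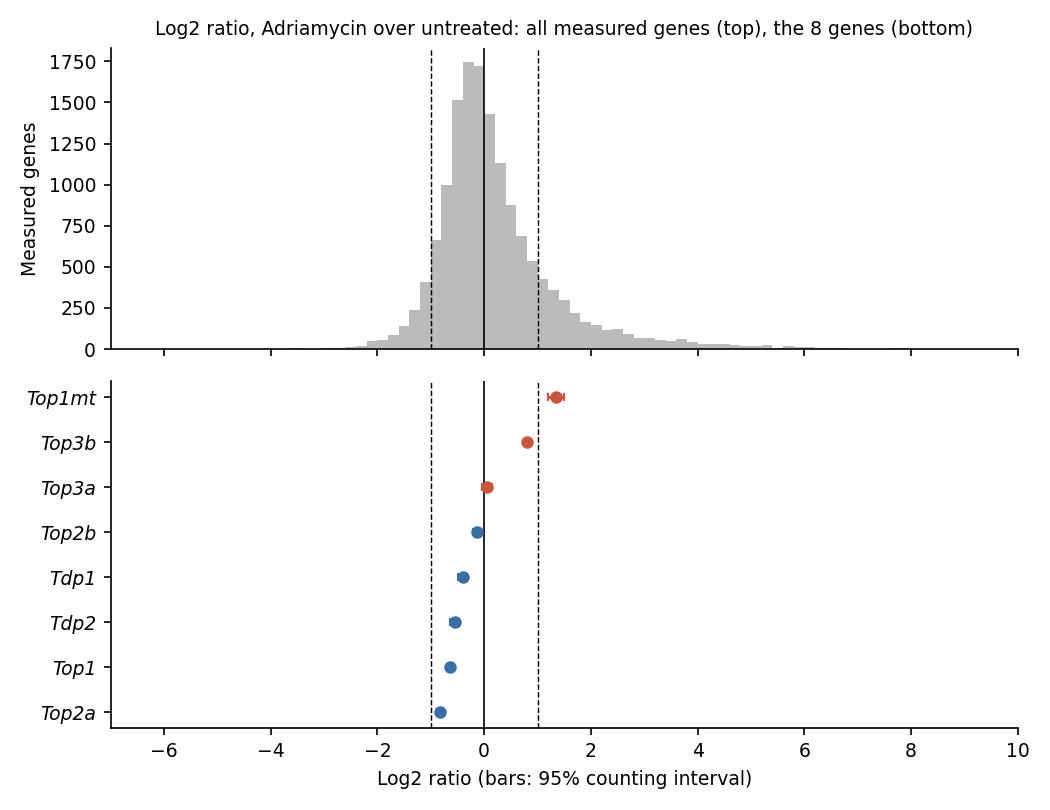
Upper panel: number of measured genes by log2 ratio, Adriamycin over untreated. Lower panel: log2 ratio of each of the 8 genes with its 95% counting interval. Dashed lines mark 2-fold. Top1mt lies beyond the upper line at 1.35, and Top2a is the lowest at -0.82.

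Top2a encodes the type II topoisomerase of dividing cells, which untangles sister chromosomes before and during mitosis. The gene (ENSMUSG00000020914) lies on chromosome 11 from 98883769 to 98915015 on the minus strand (GRCm39), with 36 exon blocks. It had 47116 reads untreated and 27192 with Adriamycin. These are 1185 and 671 CPM, a log2 ratio of -0.82 (-0.84 to -0.80) or 1.77-fold lower with Adriamycin, short of the 2-fold rule. That ratio stood above 10.7% of all measured genes and above 17.0% of the 500 measured genes nearest in mean CPM, which spanned 319 to 2692 CPM and had a median of -0.34. Under the other scalings the ratio ran from -0.94 to -0.68.

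Top2b encodes the type II topoisomerase that is also made in cells that no longer divide, where it acts at promoters and at the bases of chromatin loops. The gene (ENSMUSG00000017485, chromosome 14, 6034301 to 6104584, minus strand on GRCm39) had 3049 and 2848 reads, or 76.7 and 70.2 CPM. The log2 ratio was -0.13 (-0.20 to -0.05), at percentile 44.3 of all measured genes. Exons of Rarb, a retinoic acid receptor gene on the opposite strand, cover 1793 of its exon bases (12.3%). Reads that fall on both genes were not counted, and Rarb itself had 12 and 27 reads.

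The ratio of the 2 type II genes within a library does not depend on scaling. Per exon length, Top2a stood 25.1-fold above Top2b untreated and 15.5-fold above it with Adriamycin. With the length of the longest coding transcript these values were 30.6-fold and 18.9-fold. The exon length of Top2b includes the bases shared with Rarb, where reads on both genes were not counted, which raises the ratio per exon length. The change between libraries does not depend on the length used. The ratio of Top2a to Top2b was thus 1.62-fold lower with Adriamycin, a log2 change of -0.69 (-0.77 to -0.62, and -0.80 to -0.59 on counts divided by 2). Top2a remained the more abundant of the pair in both libraries.

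Top1 encodes the nuclear type IB topoisomerase, which relaxes DNA ahead of RNA polymerases and replication forks. The gene (ENSMUSG00000070544, chromosome 2, 160487808 to 160564684, plus strand) had 7607 reads untreated and 4964 with Adriamycin, or 191 and 122 CPM. The log2 ratio was -0.64 (-0.70 to -0.59), 1.56-fold lower with Adriamycin. It stood at percentile 16.5 of all measured genes and at percentile 23.4 of the 500 genes nearest in level.

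Top1mt encodes the related enzyme of mitochondria, which works on the mitochondrial genome. The gene (ENSMUSG00000000934, chromosome 15, 75528884 to 75550649, minus strand) had the fewest reads of the 8 in both libraries, 483 untreated and 1252 with Adriamycin. These are 12.1 and 30.9 CPM, a log2 ratio of 1.35 (1.19 to 1.501) or 2.54-fold higher, which stayed past 2-fold under all 4 scalings (1.22 to 1.49). With counts divided by 2 the interval was 1.13 to 1.57. The ratio stood at percentile 87.7 of all measured genes and at 90.6 of the 500 nearest in level, of which 12.6% were at least 2-fold higher. An antisense gene, Gm15945, overlaps 95 of its exon bases and had 2 and 4 reads.

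Top1 and Top1mt thus differed in opposite directions. Per exon length, Top1mt was 0.324 of Top1 untreated and 1.29 of it with Adriamycin. This shift of 3.97-fold, a log2 change of 1.99 (1.83 to 2.15), was the largest of the 4 pairs compared. Whether Top1mt passed Top1 depends on the length used. With the length of the longest coding transcript, Top1mt was 0.129 of Top1 untreated and 0.511 with Adriamycin. The 13 protein-coding genes of the mitochondrial genome are listed at 0 reads in both tables, so the transcripts of the DNA that Top1mt serves are not described here.

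Top3a encodes a type IA topoisomerase that works with the helicase Blm to separate joined DNA molecules, in the nucleus and in mitochondria. The gene (ENSMUSG00000002814, chromosome 11, 60630884 to 60668191, minus strand) had 1871 and 1975 reads, or 47.0 and 48.7 CPM. The log2 ratio was 0.05 (-0.04 to 0.14), and this was the 1 interval of the 8 that held 0. Top3b, a related enzyme that acts on RNA as well as DNA, had 6548 reads untreated and 11593 with Adriamycin, or 165 and 286 CPM. The gene (ENSMUSG00000022779) lies on chromosome 16 from 16688600 to 16710854 on the plus strand. Its log2 ratio was 0.80 (0.75 to 0.84), 1.74-fold higher with Adriamycin and short of 2-fold under all 4 scalings (0.67 to 0.94). Among all measured genes Top3b stood at percentile 79.3. Among the 500 genes nearest in level (188 to 271 CPM) it stood at percentile 93.8, and 25 of those were at least 2-fold higher. The ratio of Top3a to Top3b per exon length was 0.522 untreated and 0.311 with Adriamycin, a log2 change of -0.75 (-0.85 to -0.64).

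Tdp1 (ENSMUSG00000021177, chromosome 12, 99850776 to 99921478, plus strand) had 2494 reads untreated and 1920 with Adriamycin, or 62.7 and 47.4 CPM. The log2 ratio was -0.41 (-0.49 to -0.32), 1.32-fold lower. Tdp2 (ENSMUSG00000035958, chromosome 13, 25015662 to 25026136, plus strand) had 2737 and 1904 reads, or 68.8 and 47.0 CPM. Its log2 ratio was -0.55 (-0.64 to -0.47), 1.47-fold lower. Both repair genes were lower without reaching 2-fold, at percentiles 28.03 and 20.46 of all measured genes. Their ratio to each other moved least of the 4 pairs, by a log2 change of 0.15 for Tdp1 to Tdp2 (0.02 to 0.27). With counts divided by 2 that interval held 0 (-0.03 to 0.32), so a shift between Tdp1 and Tdp2 was not detectable beyond counting error.

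**Figure D2:**
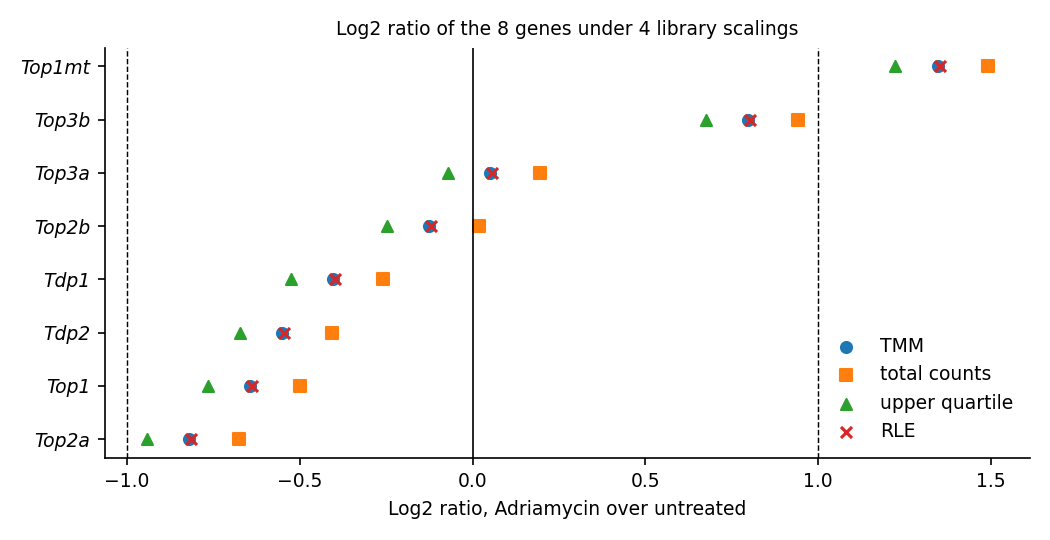
Log2 ratio of each of the 8 genes, Adriamycin over untreated, under 4 ways of scaling the library sizes. Dashed lines mark 2-fold. The points of Top2b and Top3a lie on both sides of 0, those of Top1mt lie beyond 2-fold, and the others stay on 1 side of 0 within the lines.

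Levels of different genes were compared per kilobase of exon after scaling to library size (RPKM). Untreated, Top2a led at 131 RPKM, followed by Tdp2 at 20.9, Top3b at 19.6, Top1 at 18.3, Top3a at 10.2, Tdp1 at 7.85, Top1mt at 5.94 and Top2b at 5.25. The neighbours Top1mt (5.43 to 6.50) and Top2b (5.06 to 5.44) had counting intervals that touched. On reads as deposited, the other neighbours did not overlap in counting error, though Tdp2 (20.2 to 21.7) and Top3b (19.1 to 20.1) came close. Level intervals on counts divided by 2, which are wider, were not computed, so the order of Tdp2, Top3b and Top1 is not settled. The level of Top2b is also lowered by the bases shared with Rarb. With Adriamycin the order was Top2a at 74.4 RPKM, Top3b at 34.0, Top1mt at 15.1, Tdp2 at 14.3, Top1 at 11.7, Top3a at 10.6, Tdp1 at 5.93 and Top2b at 4.81. Here the intervals of Top1mt (14.3 to 16.0) and Tdp2 (13.7 to 14.9) overlapped. With no replicate, these intervals say nothing of the spread between cultures. With the length of the longest coding transcript, Top3b and Top1 took the places after Top2a in both libraries, and Top1mt was the lowest untreated. With Adriamycin, Top1mt then came after Top1, Tdp2 and Tdp1, so its place above these depended on the length used. Untreated, Tdp1 was 0.375 of Tdp2 per exon length and 0.876 of it by coding transcript. With Adriamycin these ratios were 0.415 and 0.969.

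**Figure D3:**
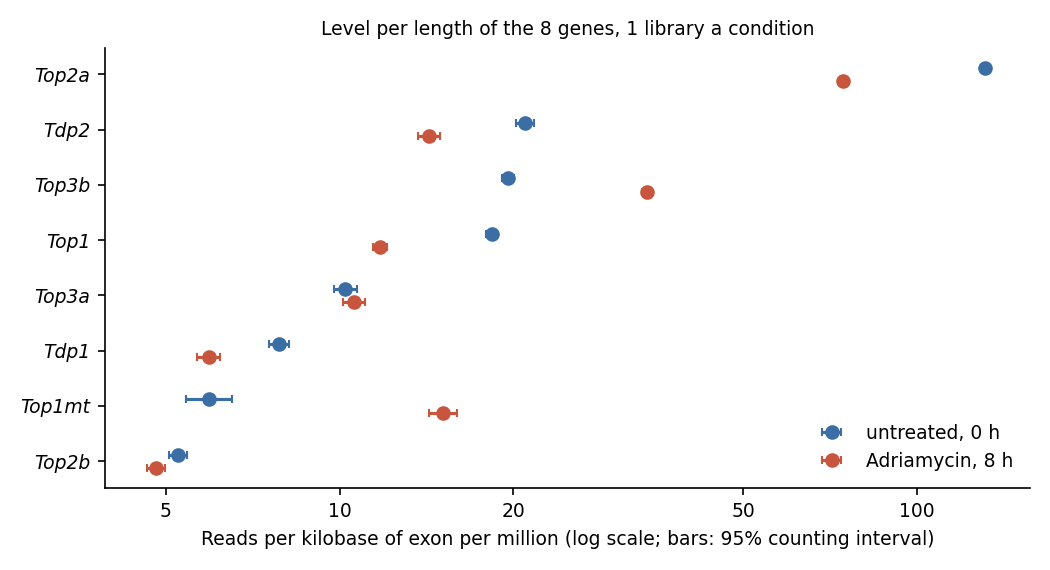
Level of each of the 8 genes in RPKM, on a log axis, with 95% counting intervals. Blue is the untreated library and red the Adriamycin library. Top1mt and Top3b lie to the right with Adriamycin, Top3a nearly coincides, and the others lie to the left.

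The make-up of topoisomerase RNA differed between the libraries. The 6 topoisomerase genes summed to 191 RPKM untreated and 151 with Adriamycin, a log2 ratio of -0.34. Top2a held 68.9% of that sum untreated and 49.4% with Adriamycin. Top3b held 10.3% and 22.6%, and Top1mt 3.12% and 10.0%. Top1 held 9.61% and 7.79%, Top3a 5.36% and 7.03%, and Top2b 2.75% and 3.19%. With coding transcript lengths Top2a held 63.7% and 44.4%, Top3b 15.0% and 32.2%, and Top1mt 1.79% and 5.61%. Top2a had the lowest and Top1mt the highest ratio of the 6, which fixes the direction of their shares whatever the length.

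**Figure D4:**
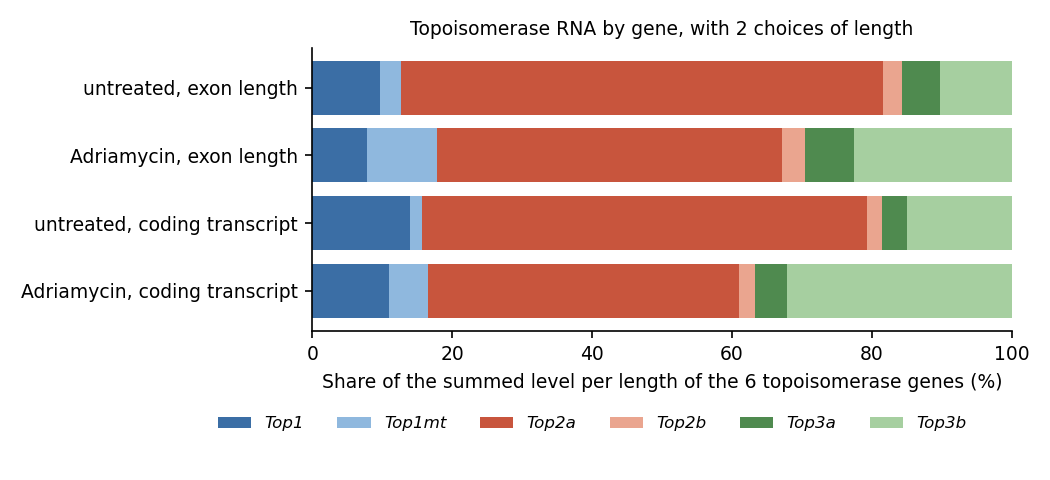
Share of each gene in the summed level per length of the 6 topoisomerase genes, in percent, for each library and for each of the 2 lengths. The Top2a part is smaller and the Top3b and Top1mt parts are larger in the Adriamycin library.

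Genes that work with these enzymes were taken from lists, whose counts stand beside 17.0% higher and 6.95% lower over all measured genes and a median of -0.03. Of 17 genes of G2 and M phase, the phases in which Top2a is most needed, 6 were at least 2-fold lower and 0 higher, with a median log2 ratio of -0.86. Plk1, a mitotic kinase, had 10229 and 2851 reads (log2 ratio -1.87). The kinase gene Aurka was 2.43-fold lower, Cenpf 2.36-fold, Prc1 2.33-fold, Cdk1 2.13-fold and Nusap1 2.12-fold. With total counts Cdk1 (-0.95) and Nusap1 (-0.94) did not reach 2-fold and 4 of the 17 were lower, where 4.85% of all measured genes were. With upper-quartile factors 8 of the 17 were lower, where 9.39% of all measured genes were. Exons of Prc1 and Nusap1 overlap those of Rccd1 and Oip5 on the opposite strand. Top2a lay inside this list, with 9 genes at a lower ratio and 8 at a higher one. Of 14 genes of condensin, cohesin and Ctcf, which fold and hold chromosomes, 1 was lower and 0 higher, with a median of -0.49. The lower one was Rad21, the cohesin subunit that is cleaved at anaphase, with 21923 and 10335 reads (-1.11, and -0.97 with total counts, short of 2-fold). Top2b, whose product binds at Ctcf and cohesin sites, had a ratio above that of 12 of these 14, and Top2a a ratio below that of 12.

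Among 5 partners of Top3a and Top3b, 0 passed 2-fold, and the median was -0.50. Fmr1, whose product joins Top3b on messenger RNA, had 4203 and 2544 reads (-0.75), and Rmi2, a subunit of the Blm and Top3a complex, had 527 and 693 reads (0.37). The helicase gene Blm itself had a log2 ratio of -0.66. Top3b had a higher ratio than all 5 partners measured. Of 11 genes for upkeep of mitochondrial DNA, 1 was higher and 0 lower, with a median of -0.20, and Top1mt had a higher ratio than all 11. The 1 higher gene was the nuclease gene Endog (260 and 537 reads, log2 ratio 1.02, and 0.90 with upper-quartile factors, short of 2-fold), which shares exon bases with Spout1 on the other strand.

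Genes that repair the breaks or strip the trapped protein were described as 3 lists. Of 13 genes for repair of type II breaks, 1 was higher and 0 lower, with a median of -0.08 (0.06 with total counts). It was Nhej1, an end joining factor also called XLF, with 191 and 619 reads (log2 ratio 1.67). Zfp451, a SUMO ligase that helps Tdp2 resolve trapped Top2, had a log2 ratio of 0.32. Tdp2 itself had a ratio below that of 12 of the 13. Of 10 genes for repair of Top1 breaks, 0 passed 2-fold, with a median of 0.22. Xrcc1, the scaffold of single-strand break repair, came nearest with 4021 and 8100 reads (0.98, and 1.13 with total counts, past 2-fold). Lig3, the ligase that Xrcc1 binds, had 4483 and 2768 reads (-0.72). Tdp1 had a ratio below that of 8 of these 10. Of 12 measured genes for modification and removal of trapped protein, 0 were higher and 1 was lower, with a median of -0.41. That gene was Sumo2 on 155 and 73 reads (-1.11, and -0.96 with total counts, short of 2-fold), which has near-identical retrocopies, so its count is uncertain. The protease gene Sprtn had a log2 ratio of 0.48 (1278 and 1818 reads). Of 5 meiotic genes around Spo11, a relative of topoisomerase VI that makes breaks in germ cells, 3 were measured. Rec114 was higher (1.47) on 220 and 621 reads, and it shares exon bases with Nptn on the other strand. Mei4 went the other way, with 153 and 92 reads (-0.76). Iho1 had 128 and 237 reads (0.86, the median of the list, and 1.003 with total counts, past 2-fold). Spo11 itself had 0 and 2 reads.

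**Figure D5:**
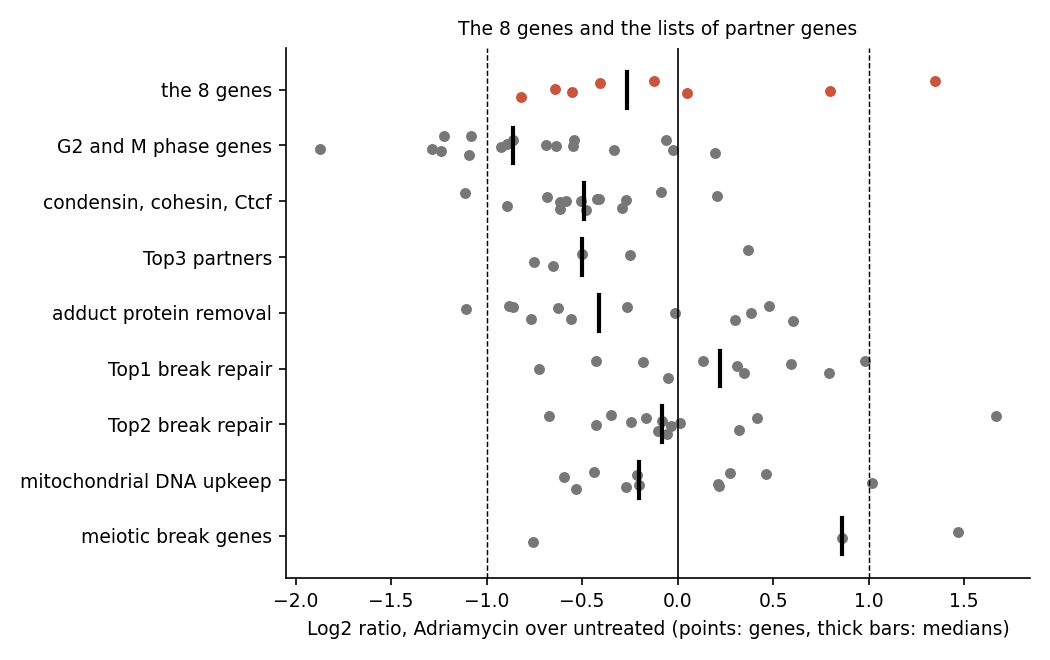
Log2 ratio of the 8 genes (red) and of the measured genes of each list (grey), Adriamycin over untreated, with thick bars at the medians and dashed lines at 2-fold. Of the 8 lists plotted, that of G2 and M phase genes has the lowest median, -0.86, and Top1mt lies to the right of all genes for upkeep of mitochondrial DNA.

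Several of the 8 genes share a start region with a gene on the opposite strand. Top3a starts 159 bases from Smcr8 (2721 and 3308 reads, log2 ratio 0.25), Tdp1 78 bases from Efcab11 (128 and 178 reads, 0.45), and Tdp2 139 bases from Acot13 (625 and 590 reads, -0.11). Tdp1 and Efcab11 lay on opposite sides of 0. The outermost start of Top3b lies 107 bases inside Vpreb1, a gene of B cell precursors with 54 and 116 reads (1.07), and 108 exon bases overlap (1.29% of Top3b). None of these neighbours had more reads than its member except Smcr8.

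The gene nearest to each member in both levels at once was found by the distance between pairs of log2 RPKM over the 2 libraries, among 12973 named protein-coding genes. It was Cnn3 for Top2a (133 and 72.6 RPKM), Ipp for Top2b, Ttc5 for Top1, Ap1m2 for Top1mt (5.95 and 15.7 RPKM), Lsm1 for Top3a, Wdr61 for Top3b (19.2 and 33.6 RPKM), Senp1 for Tdp1 and Ep300 for Tdp2. With 2 libraries such likeness is common. Within a distance of 0.25 there were 32 genes for Top2a, 43 for Top1mt and 35 for Top3b, and 205 to 275 for each of the 5 others.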

How the data were processed

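The authors deposited unscaled read counts for each gene, in a table for each library. The counter was featureCounts 2.0.3, per the file headers, run on pairs with both ends aligned over exons of annotation release 105 of GRCm39, with no option for strand, multi-mapping reads, reads on several genes or counting pairs as fragments. The submitters' processing notes name featureCounts 1.6.0, HISAT2 2.0.4 and the builds mm9 and mm10, which differ from the headers. Counts of 2 were more frequent than counts of 1 (2067 against 1629 genes untreated, 2266 against 1719 with Adriamycin).

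Symbols came from GENCODE M21 by identifier (52081 matched, 3333 not), and promoter windows from RefSeq. TMM factors were 0.951 and 1.05 (edgeR 4.0.16, R 4.3.3). Ratios and exact intervals (Clopper-Pearson, conditional odds ratio, Poisson) used scipy 1.17.1, numpy 2.4.6 and pandas 2.3.3 in Python 3.11.15. The ratio script was checked on simulated Poisson counts with few changed genes, as many raised as lowered. That check cannot show how TMM scaling or the intervals behave with the uneven changes seen here, or with mates counted separately. All intervals cover counting error only. PCR copies are not independent molecules, so the intervals can be too narrow even for that. A count of 0 allows up to 3 reads. Alternatives were 3 other scalings, other filters, a 1.5-fold rule, a pseudocount of 5 reads, counts divided by 2 and, added after seeing the data, transcript length. The genes, lists and rules were chosen with earlier results of these data known. Named were the 8 members, list genes past 2-fold (for lists with none, the extremes), neighbours, the nearest gene by level, and Mdm2 and Cdkn1a. Blm, Zfp451, Sprtn, Spo11, Mei4, Iho1, the mitochondrial genes and the marker genes short of 2-fold or not measured were named after seeing their values. Gcna was not matched.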

Additional observations from a re-analysis of the deposited data

How the results depend on the processing

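No paired analysis was possible because each condition has 1 library. With a 1.5-fold rule, 2 members were higher and 2 lower, as were 8 and 28 genes of the partner lists (25.7% and 18.9% of all measured genes). By the 2-fold rule 3 list genes were higher and 8 lower (17.0% and 6.95% of all measured genes). The 8 partner lists held 5, 13, 10, 12, 11, 3, 14 and 17 measured genes. With total counts 5 list genes were higher and 4 lower, where 19.6% and 4.85% of all measured genes were. Upper-quartile factors gave 2 higher and 12 lower, where 15.1% and 9.39% of all measured genes were. The 3 changed calls of members were those of Top1, Top2a and Top3b. Of all called genes, 71.0% were higher with TMM, 61.6% with upper-quartile factors and 80.2% with total counts. With coding transcript length, the share of Top2a in topoisomerase RNA was 63.7% untreated and 44.4% with Adriamycin, against 68.9% and 49.4%. The counts of members past 2-fold were the same under every other scaling, filter and pseudocount run. Counts divided by 2 left 7 of 8 intervals clear of 0, as with reads as deposited. These intervals hold the TMM scaling fixed, and Top2b, which is among the 7, had a log2 ratio of 0.02 with total counts. Depth limits little for the members, which had at least 483 reads, but Sumo2, Nhej1, Endog and Rec114 rest on at most 260 untreated reads. The lack of replicates limits every comparison.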
